A study of Mus musculus with 24 samples.

Results

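Neutrophil granule and calprotectin genes were followed in mouse liver at 6 h after partial hepatectomy. The set holds 10 of the 19057 genes with a probe on the array: S100a8, S100a9, Prtn3, Mpo, Elane, Ngp, Camp, Ltf, Csf3r and Retnlg. Its members are the probes that the platform annotation assigns to these symbols, 18 of 45281, and 5 of the 18, each for another gene, passed the detection filter, against 19631 of all probes. The mice were male C57BL/6J of 12 weeks, by the labels, and were either obese from an obesogenic diet (diet-induced obesity) or lean controls. Each diet had 3 surgeries, with 4 arrays per group: sham (a midline incision with handling of the liver), 70% hepatectomy and 80% hepatectomy. No transgene, drug or deletion is named, and the tissue is whole liver, so blood cells left in the organ are part of every sample. The labels number the arrays of a group as replicates without naming animals, so p-values measure the spread between those arrays.

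Neutrophils are short-lived white blood cells that enter injured tissue early and carry their weapons in granules filled during maturation in the bone marrow. Proteinase 3 (Prtn3), neutrophil elastase (Elane) and myeloperoxidase (Mpo) belong to the azurophil granules, which precursors make first, while lactoferrin (Ltf), cathelicidin (Camp) and neutrophilic granule protein (Ngp) belong to the specific granules made later. RNA for these granule proteins is abundant in precursors and largely lost in mature cells. S100a8 and S100a9 pair to form calprotectin, a calcium- and zinc-binding protein that fills the cytosol of mature neutrophils and signals through Toll-like receptor 4 once released. Csf3r encodes the receptor for granulocyte colony-stimulating factor, and Retnlg a secreted resistin-like protein of marrow and neutrophils.

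S100a8 and S100a9 lie next to each other on chromosome 3, and Prtn3 and Elane on chromosome 10, each pair with 0 protein-coding gene starts between them in the RefSeq table. The promoters of both pairs and of Retnlg are printed because the first pair and Retnlg moved together on the arrays, while Prtn3 had a pattern of its own and its neighbour Elane did not pass the detection filter. They come from RefSeq (GRCm38.p6), run 5′ to 3′ on the gene's strand and span 250 bases before to 50 bases after the gene start. All 10 members matched an entry. Capitals mark matches on either strand to TTNNGNAA, a form bound by C/EBP factors, and to GAGGAA, the core bound by PU.1. Both factor families drive granulocyte genes.
S100a8, chr3:90668821-90669120, plus strand: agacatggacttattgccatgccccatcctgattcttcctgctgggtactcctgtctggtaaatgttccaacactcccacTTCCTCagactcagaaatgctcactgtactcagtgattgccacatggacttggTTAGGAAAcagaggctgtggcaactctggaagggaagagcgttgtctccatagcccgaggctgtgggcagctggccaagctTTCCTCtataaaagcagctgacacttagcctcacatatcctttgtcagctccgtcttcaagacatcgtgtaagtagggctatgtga
S100a9, chr3:90695672-90695971, minus strand: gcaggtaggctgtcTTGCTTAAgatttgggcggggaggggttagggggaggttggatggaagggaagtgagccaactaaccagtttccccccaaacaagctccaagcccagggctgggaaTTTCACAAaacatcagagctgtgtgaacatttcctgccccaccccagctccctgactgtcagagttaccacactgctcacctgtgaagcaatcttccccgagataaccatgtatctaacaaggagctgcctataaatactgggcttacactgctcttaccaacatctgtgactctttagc
Retnlg, chr16:48872358-48872657, plus strand: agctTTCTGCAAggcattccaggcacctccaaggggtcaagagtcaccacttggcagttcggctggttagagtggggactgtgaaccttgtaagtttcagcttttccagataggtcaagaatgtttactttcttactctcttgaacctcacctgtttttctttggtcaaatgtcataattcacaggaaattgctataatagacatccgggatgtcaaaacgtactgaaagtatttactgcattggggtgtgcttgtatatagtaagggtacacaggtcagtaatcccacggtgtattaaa
Prtn3, chr10:79879417-79879716, plus strand: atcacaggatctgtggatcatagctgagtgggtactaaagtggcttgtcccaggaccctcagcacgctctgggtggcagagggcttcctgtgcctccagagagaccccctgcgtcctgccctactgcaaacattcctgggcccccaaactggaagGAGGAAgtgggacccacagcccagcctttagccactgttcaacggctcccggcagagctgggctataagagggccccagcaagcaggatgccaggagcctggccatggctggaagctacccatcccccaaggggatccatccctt
Elane, chr10:79886062-79886361, plus strand: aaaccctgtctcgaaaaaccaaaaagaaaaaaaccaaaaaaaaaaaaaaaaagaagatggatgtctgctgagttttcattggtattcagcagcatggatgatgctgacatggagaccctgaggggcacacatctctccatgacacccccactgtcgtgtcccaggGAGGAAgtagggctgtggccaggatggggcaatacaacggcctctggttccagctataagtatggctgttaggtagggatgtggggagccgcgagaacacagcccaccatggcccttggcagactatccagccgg
TTNNGNAA occurred in 5 of the 10 member promoters and in 40.7% of all 32851 promoters of that length, and GAGGAA in 6 of 10 and in 28.3%. A form bound by NF-kB occurred in 5 of 10 and in 50.8%. The STAT form TTCNNNGAA and the AP-1 form TGANTCA occurred in 0 of 10, against 8.3% and 7.81% of all promoters. None of the matches to different motifs overlapped in the member promoters, and a match is only a description of the letters.

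The arrays detected 15316 to 17463 probes each, and arrays of 1 group correlated at 0.977 or above over all probes. Such a correlation is not sensitive to an array that differs in part of its probes. All 10 hepatocyte markers were measured, as the liver label requires. Among the surface genes that mark neutrophils, Ly6g, Itgam and Cd177 had no probe that passed, and 0 of 8 markers of eosinophils, basophils and mast cells passed. The arrays lay on 4 slides of 6. Slide and surgery cannot be told apart in the comparisons of lean 80%, obese 70% and obese 80% livers with their shams and of 80% with 70% in lean mice. Slide and diet cannot be told apart between obese and lean livers at 70%, nor slide and group in the interaction of diet with 70% hepatectomy.

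Values below are log2 intensities after background correction and quantile normalization, given for replicates 1 to 4. A probe counts as detected on an array when its detection p was under 0.05. The dimmest detected probe of an array set its detection floor, which lay between 4.73 and 4.92. Levels of different probes cannot be compared, since each probe has its own brightness.

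The calprotectin gene S100a8 (probe ILMN_2710905) was detected on all 24 arrays. In obese livers it read 5.80, 5.18, 5.61 and 5.05 after sham surgery, 9.43, 10.09, 9.35 and 10.23 after 70% hepatectomy, and 11.77, 11.11, 11.51 and 10.996 after 80% hepatectomy. In lean livers it read 6.55, 5.28, 5.72 and 5.69 after sham surgery, 9.73, 11.07, 10.78 and 9.32 after 70%, and 9.58, 10.76, 10.48 and 9.21 after 80%. Every hepatectomy array lay above every sham array. The 4 obese 80% arrays formed a step of their own above obese 70%, whereas the lean 70% and lean 80% arrays covered the same range. In unnormalized intensity the obese 80% arrays spanned 1918.5 to 4119.4 and the obese sham arrays 84 to 103.3.

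S100a8 rose 20.6-fold after obese 70% hepatectomy (log2 4.36, SE 0.35, n = 4 each, limma, adjusted p = 6.78e-10) and 61.2-fold after obese 80% (log2 5.93, SE 0.35, adjusted p = 1.71e-12). In lean livers it rose 21.3-fold after 70% (log2 4.41, SE 0.35, adjusted p = 4.46e-10) and 18.4-fold after 80% (log2 4.20, SE 0.35, adjusted p = 5.92e-10). Ordered from the highest change among 19631 probes, it stood at place 9 after obese 70%, place 2 after obese 80%, place 20 after lean 70% and place 29 after lean 80%. In whole liver, more neutrophils, more RNA per neutrophil and RNA from other cells cannot be told apart.

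S100a9 (probe ILMN_2803674) followed the same course. In obese livers it read 4.50, 4.45, 4.68 and 4.49 after sham surgery, all below detection, then 8.36, 8.80, 8.21 and 9.21 after 70%, and 10.64, 10.11, 10.35 and 10.13 after 80%. In lean livers it read 5.78, 4.76, 5.20 and 4.72 after sham surgery, with replicates 1 and 3 detected, 8.78, 10.22, 9.86 and 8.60 after 70%, and 8.70, 9.64, 9.49 and 8.28 after 80%. As for S100a8, hepatectomy and sham arrays did not overlap, and obese 80% lay apart from obese 70%. 

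Where no array of a group detected a probe, the fold against it is given as a lower bound, computed from the other group's mean and the detection floor. Such a bound allows for the floor but not for the spread between arrays, so the true fold may be smaller. The adjusted p beside it belongs to the difference of the group means without the floor. S100a9 was at least 14.4-fold higher after obese 70% hepatectomy (adjusted p = 2.96e-10) and at least 45.5-fold higher after obese 80% (adjusted p = 4.77e-13) than after obese sham surgery, by limma. In lean livers it rose by log2 4.25 (SE 0.32, adjusted p = 1.42e-10) after 70% and by 3.91 (SE 0.32, adjusted p = 3.24e-10) after 80%. The lean sizes depend on the background as well, since 2 of the 4 lean sham arrays detected the probe.

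**Figure D1:**
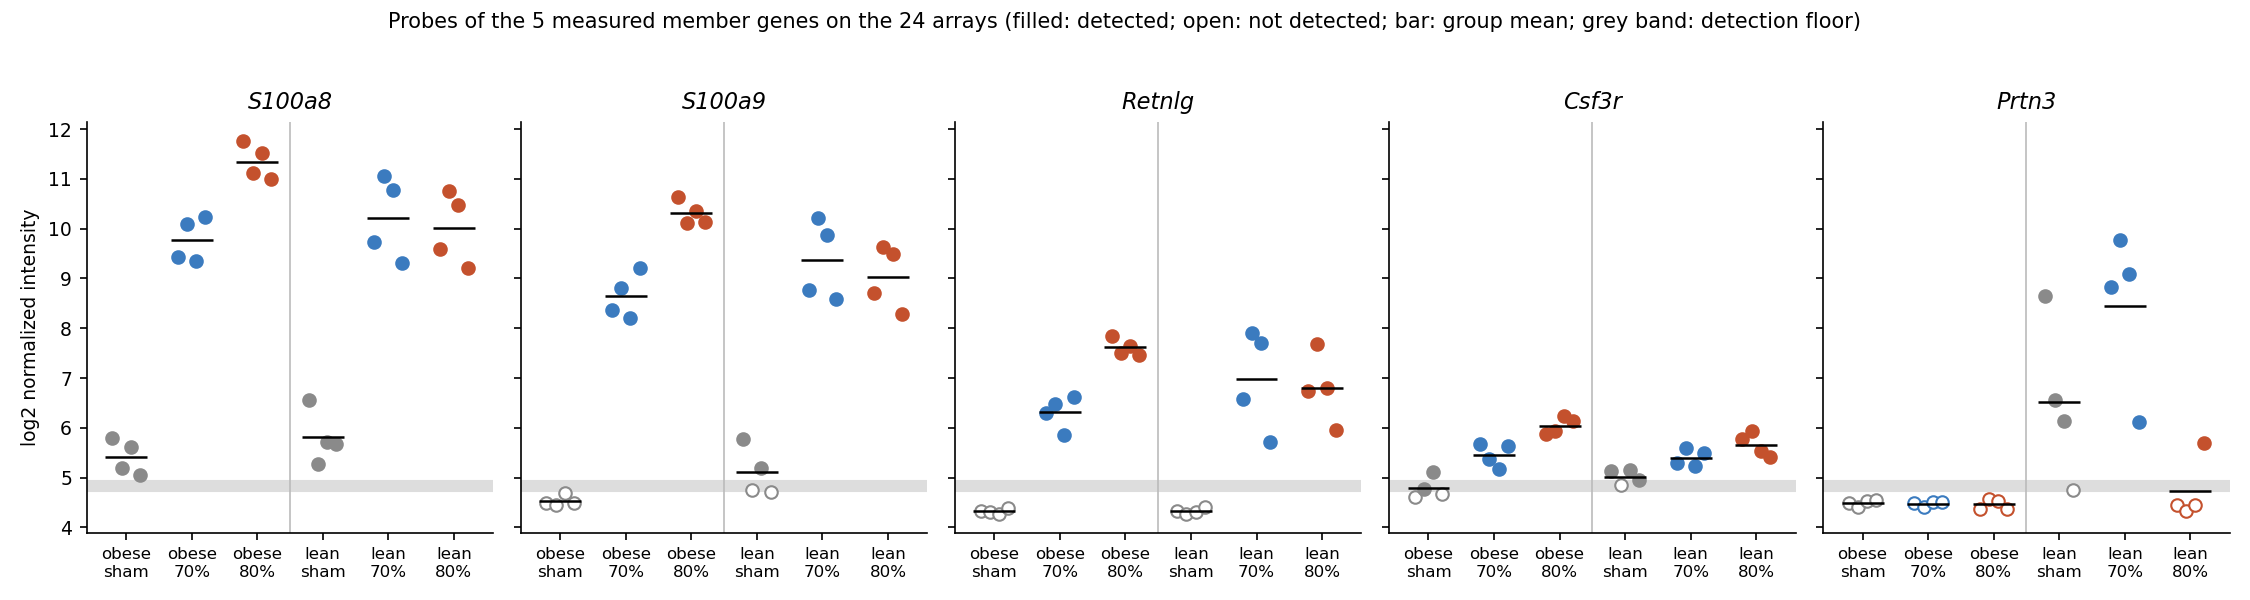
Log2 normalized intensity (vertical axis) of the 5 probes that passed the filter, with 1 point per array for the 6 groups of 4 arrays and a bar at each group mean; filled points were detected, open points were not, and the grey band spans the detection floors. S100a8, S100a9 and Retnlg are high on all hepatectomy arrays and highest in mean in obese 80%, while Prtn3 is detected on lean arrays only.

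In obese mice the larger resection gave higher calprotectin RNA by direct test. S100a8 was 2.97-fold higher after 80% than after 70% hepatectomy in obese livers (log2 1.57, SE 0.35, adjusted p = 0.0101) and S100a9 3.16-fold higher (log2 1.66, SE 0.32, adjusted p = 0.00343), with the 4 arrays of each group apart. In lean livers the 80% minus 70% difference was -0.22 for S100a8 (95% interval -0.96 to 0.53, adjusted p = 0.713) and -0.34 for S100a9 (-1.01 to 0.33, adjusted p = 0.5). With slide as a fixed term the obese differences were 1.90 for S100a8 (adjusted p = 0.0954) and 1.95 for S100a9 (adjusted p = 0.056). Those 2 groups lay on different slides, joined only through the lean 80% arrays.

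Obese and lean livers differed in calprotectin RNA after 80% hepatectomy. After 80% hepatectomy, S100a8 was 2.53-fold higher in obese than in lean livers (log2 1.34, SE 0.35, adjusted p = 0.00946) and S100a9 2.43-fold higher (log2 1.28, SE 0.32, adjusted p = 0.00627), and the arrays did not overlap for either gene. Within slide 4, which held 4 obese and 2 lean arrays of the 80% groups, the difference was 1.50 for S100a8 and 1.42 for S100a9.  After 70% hepatectomy the obese minus lean difference was -0.45 for S100a8 (95% interval -1.19 to 0.30, adjusted p = 0.353) and -0.72 for S100a9 (-1.39 to -0.05, adjusted p = 0.0888). The S100a9 difference at 70% was called without lean 70% replicate 1 (-0.91, adjusted p = 0.043) or 4 (-0.97, adjusted p = 0.0239) and without obese 70% replicate 4 (-0.91, adjusted p = 0.0477). After sham surgery it was -0.40 for S100a8 (adjusted p = 0.564, and -0.32 within slide 1), and S100a9 was below detection on all obese sham arrays against 2 of 4 detected in lean sham.

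The interaction asks whether the change after hepatectomy was larger in obese than in lean mice. For 80% hepatectomy it was 1.74 for S100a8 (SE 0.50, adjusted p = 0.03) and 1.86 for S100a9 (SE 0.45, adjusted p = 0.0101) on the log2 scale. With the undetected obese sham group set at the floor, the S100a9 interaction was 1.59. With slide as a fixed term the interaction was 1.82 for S100a8 (adjusted p = 0.13) and 2.06 for S100a9 (adjusted p = 0.0515). The S100a8 call was also lost with no detection filter (adjusted p = 0.0943) and, at adjusted p = 0.0572 to 0.0695, without any one of lean sham replicate 1, obese sham replicates 2 and 4, lean 80% replicates 1 and 4 and obese 80% replicates 1 and 3. The S100a9 call held without each array in turn. For 70% hepatectomy it was -0.05 for S100a8 (95% interval -1.11 to 1.00, adjusted p = 0.958) and -0.13 for S100a9 (-1.08 to 0.82, adjusted p = 0.872). In order of group means, S100a8 ran from obese sham and lean sham, which overlapped, through obese 70%, lean 80% and lean 70%, which also overlapped, to obese 80%, whose lowest array lay just below the highest lean 70% array. The comparisons of surgeries, of diets and of resection sizes share arrays, so they are not independent of each other.

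The resistin-like gene Retnlg (probe ILMN_2656504) was below detection on all 8 sham arrays, at 4.28 to 4.39 in obese sham and 4.27 to 4.41 in lean sham. After hepatectomy it was detected on all 16 arrays. Obese livers read 6.30, 6.48, 5.86 and 6.62 after 70% and 7.84, 7.51, 7.65 and 7.47 after 80%, and lean livers 6.58, 7.91, 7.71 and 5.71 after 70% and 6.74, 7.69, 6.80 and 5.95 after 80%. The lean groups spread widely, with lean 70% replicates 2 and 3 above the rest of that group, while the obese 80% arrays lay close together.

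Against sham livers of the same diet, Retnlg was at least 2.86-fold higher after obese 70% (adjusted p = 3.02e-05) and at least 7.06-fold higher after obese 80% (adjusted p = 1.29e-08), and in lean livers at least 4.33-fold higher after 70% (adjusted p = 4.86e-07) and at least 3.82-fold higher after 80% (adjusted p = 1.03e-06), all by limma. Obese 80% exceeded obese 70% by 2.47-fold (SE 0.33 on the log2 scale, adjusted p = 0.0205), with no overlap. That call was lost with no detection filter (adjusted p = 0.0573), and without obese 70% replicate 1 or 3 or obese 80% replicate 1 or 3, with the highest adjusted p at 0.0827. The obese minus lean difference was 0.82 after 80% (95% interval 0.13 to 1.52, adjusted p = 0.0831) and -0.66 after 70% (-1.36 to 0.03, adjusted p = 0.13). The 80% difference was called with slide as a fixed term (1.24, adjusted p = 0.0475) and without lean 80% replicate 2 (1.12, adjusted p = 0.022) or lean 70% replicate 4 (0.82, adjusted p = 0.0262). Without lean 70% replicate 4 the 70% difference was called as well (-1.09, adjusted p = 0.00518), as was the interaction of diet with 70% hepatectomy (-1.08, adjusted p = 0.0495), against -0.66 with all arrays (adjusted p = 0.35). The interaction with 80% hepatectomy was 0.83 (SE 0.47, adjusted p = 0.297). Both interactions are set against undetected sham groups, and with these at the floor they were -0.60 for 70% and 0.89 for 80%.

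Csf3r, the growth factor receptor that neutrophils carry on their surface, had 5 probes, and only ILMN_1255648 passed the filter. In obese livers it read 4.61, 4.77, 5.12 and 4.68 after sham surgery, 5.68, 5.37, 5.17 and 5.63 after 70%, and 5.87, 5.93, 6.23 and 6.14 after 80%. In lean livers it read 5.12, 4.84, 5.16 and 4.94 after sham surgery, 5.29, 5.59, 5.23 and 5.50 after 70%, and 5.78, 5.93, 5.54 and 5.41 after 80%. Levels stayed near the detection floor throughout, and 2 obese sham arrays and 1 lean sham array were below detection.

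Csf3r rose by log2 0.67 (SE 0.14, adjusted p = 0.000388) after obese 70% and by 1.25 (SE 0.14, adjusted p = 6.59e-08) after obese 80%, and in lean livers by 0.38 (SE 0.14, adjusted p = 0.0273) after 70% and by 0.65 (SE 0.14, adjusted p = 0.000403) after 80%, with no overlap in any of the 4. The lean 70% call was lost with slide as a fixed term (0.17, adjusted p = 0.657) or as random blocks (0.112), with no detection filter (0.0538), without background correction (0.058), with the authors' log2 values (0.0583) and, at adjusted p = 0.0642 to 0.0916, without lean 70% replicate 2 or 4 or lean sham replicate 2 or 4. Obese 80% exceeded obese 70% by 0.58 (SE 0.14, adjusted p = 0.0144), a call lost without obese 70% replicate 3 or obese 80% replicate 3 or 4, with the highest adjusted p at 0.0737. The interaction of diet with 80% hepatectomy was 0.60 (SE 0.20, adjusted p = 0.0546), and it was called without lean 80% replicate 2, lean sham replicate 2, obese 70% replicate 3 or obese sham replicate 3, with values of 0.60 to 0.71. It was also called with slide as a fixed term (0.90, adjusted p = 0.03) or as random blocks (0.0446), under upper-quartile scaling (0.0388), with a stricter filter (0.0433) and with 1 probe per gene (0.0486). The obese minus lean difference after 80% was 0.38 (adjusted p = 0.0564), called with slide as a fixed term (0.57, adjusted p = 0.0228), under 5 further processing alternatives (adjusted p = 0.0378 to 0.0459) and without lean 80% replicate 2, obese 70% replicate 3 or obese sham replicate 3. A second Csf3r probe, ILMN_2806180, was detected on obese 80% arrays only, on replicates 1, 3 and 4 at 4.77, 5.11 and 4.93, and the other 3 probes on no array.

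Prtn3, the azurophil granule protease, had a pattern unlike the calprotectin genes. Its probe (ILMN_2758029) was detected on 8 arrays, all from lean mice. Lean livers read 8.65, 6.55, 6.13 and 4.76 after sham surgery, the last below detection, 8.83, 9.77, 9.08 and 6.12 after 70%, and 4.45, 4.33, 4.46 and 5.69 after 80%, where only the last was detected. Obese livers read 4.50, 4.41, 4.53 and 4.54 after sham surgery, 4.49, 4.41, 4.50 and 4.51 after 70%, and 4.37, 4.57, 4.54 and 4.37 after 80%, all below detection.

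Prtn3 was at least 3.3-fold lower in obese than in lean sham livers (adjusted p = 0.0273) and at least 12.6-fold lower in obese than in lean livers after 70% hepatectomy (adjusted p = 2.42e-05), by limma and without overlap. After 80% no call was made (adjusted p = 0.808), with 0 of 4 obese and 1 of 4 lean arrays detected. The sham call was lost with slide as a fixed term (adjusted p = 0.133), with no detection filter (0.0936), without background correction (0.0902), with an offset of 50 (0.0922) and with the authors' log2 values (0.0904). It was also lost without lean sham replicate 1 (adjusted p = 0.129) and, at adjusted p = 0.0511 to 0.0629, without lean sham replicate 2 or any one obese sham array.

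Within lean mice, Prtn3 was lower after 80% than after 70% hepatectomy by log2 -3.72 (SE 0.59, adjusted p = 0.000128), the lowest difference of all 19631 probes in that comparison, with no overlap. Its size depends on the background, since 1 of the 4 lean 80% arrays was detected. Against lean sham livers Prtn3 rose by 1.93 after 70% (SE 0.59, adjusted p = 0.00996) and fell by 1.79 after 80% (SE 0.59, adjusted p = 0.0138), and in both cases the arrays overlapped those of sham livers, whose SD was 1.61 (n = 4). The 70% call was lost without lean sham replicate 4 (adjusted p = 0.0635) or lean 70% replicate 2 (0.0541) and with slide as a fixed term (0.253). The 80% call was lost without lean sham replicate 1 (-1.08, adjusted p = 0.0927). Prtn3 was undetected on all obese arrays, so its interactions of diet with hepatectomy only restate the lean changes and are not given.

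**Figure D2:**
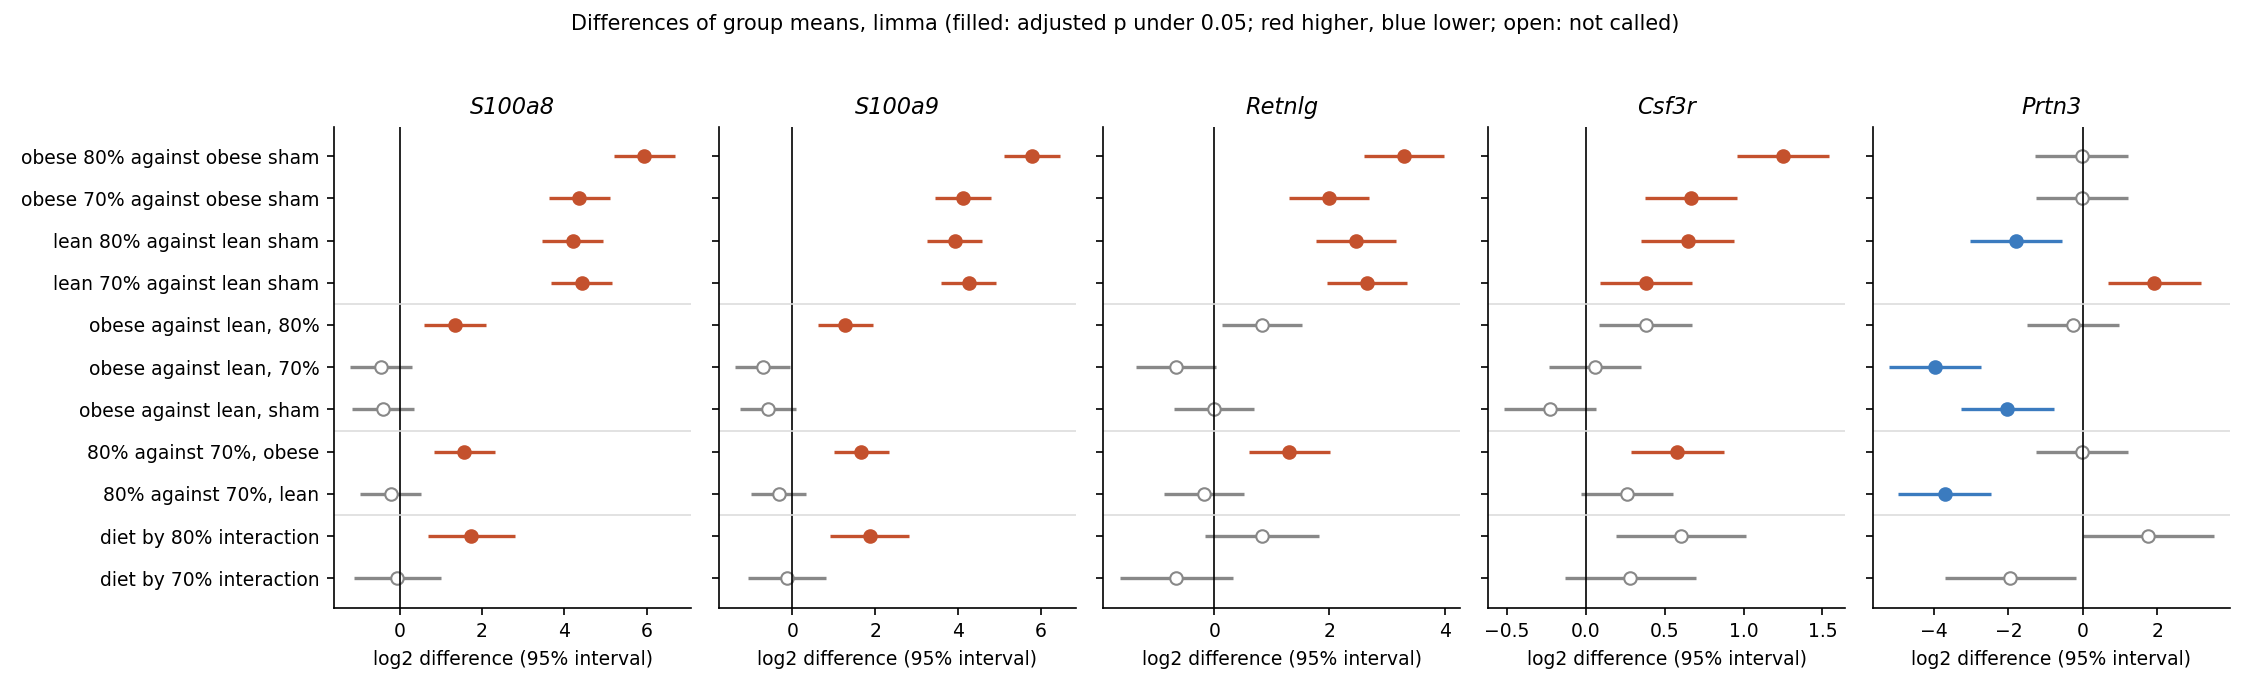
Log2 differences of group means (horizontal axis, points) with 95% intervals (lines) for the 5 probes in the 11 comparisons, from limma with 4 arrays per group; filled points have an adjusted p under 0.05. Calprotectin differences lie above 0 in all 4 comparisons of hepatectomy with sham surgery, and for Prtn3 the called differences lie on both sides of 0. Points set against a group that was not detected depend on the background. The Prtn3 interactions only restate the lean changes, since no obese array detected the probe.

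Read against all probes, the called shares of the comparisons were large. In obese livers 20.5% of the 19631 probes were called higher after 70% and 22.6% after 80%, and 4 of the 5 member probes were, all but Prtn3. In lean livers 20.2% were called higher after 70%, with all 5 member probes, and 24% after 80%, with 4, while 28% were called lower after 80%, with Prtn3. For 80% against 70% hepatectomy in obese livers, 3.82% of all probes were called higher and 4 of the 5 member probes, and in lean livers 9.32% were called lower and 1 of 5. For obese against lean livers, 10.4% were called higher after 80%, with 2 members, 14.8% lower after 70%, with 1, and 5.09% lower after sham surgery, with 1. The interaction of diet with 80% hepatectomy called 4.78% of all probes higher and 2 members, and that with 70% called 17.9% in either direction and 0 members.

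Non-overlap gives a similar view. In obese livers, all arrays of 4 member probes lay above sham after 70% (20.4% of all probes) and after 80% (22.1%), and in lean livers 4 did so after 70% (17.5%) and after 80% (19.6%). All obese 80% arrays lay above obese 70% for 4 members (6.74% of all probes) and above lean 80% for 2 (10%). All obese arrays lay below lean for S100a9 and Prtn3 after sham surgery (9.2% of all probes), where the obese readings of both were below detection, and for Prtn3 after 70% hepatectomy (13.2%), and all lean 80% arrays lay below lean 70% for Prtn3 (7.38%). These counts and the called shares above concern the 5 members bright enough to pass the filter, so they do not speak for the 10 genes. A member that passed only through the group where it is high had to differ. Retnlg was detected on hepatectomy arrays only and Prtn3 on lean arrays only. S100a8, S100a9 and Retnlg moved together within groups, so their calls are not independent.

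The remaining 13 probes did not pass: 4 of Mpo, 4 of Csf3r, 2 of Ltf and 1 each of Elane, Camp and Ngp. Of these, 7 were detected on no array, among them the Ngp probe. Over the 312 readings of the 13 probes, 15 (4.81%) had a detection p under 0.05. Such a threshold passes a share of that size without any signal, so the pooled share does not show whether single arrays held signal.

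The 15 detections were not spread evenly over the arrays. There were 8 on lean 70% arrays, 5 on obese 80% and 2 on lean 80%, and 0 on obese 70%, obese sham and lean sham arrays. All 8 of the lean 70% group came from replicate 2, with 5, and replicate 3, with 3. These are also the lean 70% arrays with the highest S100a8, S100a9 and Retnlg, and they hold the 2 highest Prtn3 readings of all 24 arrays.

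Mpo, an azurophil granule enzyme that makes hypochlorous acid, read 4.43, 6.98, 5.99 and 4.29 on probe ILMN_1249030 in lean 70% livers, with replicates 2 and 3 detected. Its probe ILMN_2600421 read 4.73, 6.00, 5.08 and 4.35, again with replicates 2 and 3 detected, and both probes were below detection on the other 20 arrays. The 2 further Mpo probes were detected on no array. Ltf, the iron-binding protein of specific granules, read 4.52, 6.03, 5.23 and 4.51 on probe ILMN_2754364, with the same replicates detected, and was detected once more in lean 80% replicate 2, at 4.93. In each case 2 lean 70% arrays were raised and the other 2 were not.

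Elane and Camp were detected in lean 70% replicate 2 as well, at 5.03 and 5.27. Elane was otherwise detected in obese 80% replicate 3 only, at 4.79, and Camp, a precursor of an antimicrobial peptide, in obese 80% replicate 1 and lean 80% replicate 3, both at 4.81. The readings of 4.79 and 4.81 sit at the floor, and those of lean 70% replicate 2 lie above that array's floor of 4.92. With no detection filter, which tests all 45281 probes, the lean 70% against lean sham difference was 1.15 (SE 0.35, adjusted p = 0.0242) and 0.74 (SE 0.20, adjusted p = 0.00988) for the first 2 Mpo probes and 0.67 (SE 0.22, adjusted p = 0.0333) for the Ltf probe. Each of these rests on the same 2 arrays, against sham arrays that were all below detection. Ngp gave 0.20 (SE 0.08, adjusted p = 0.0939).

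**Figure D3:**
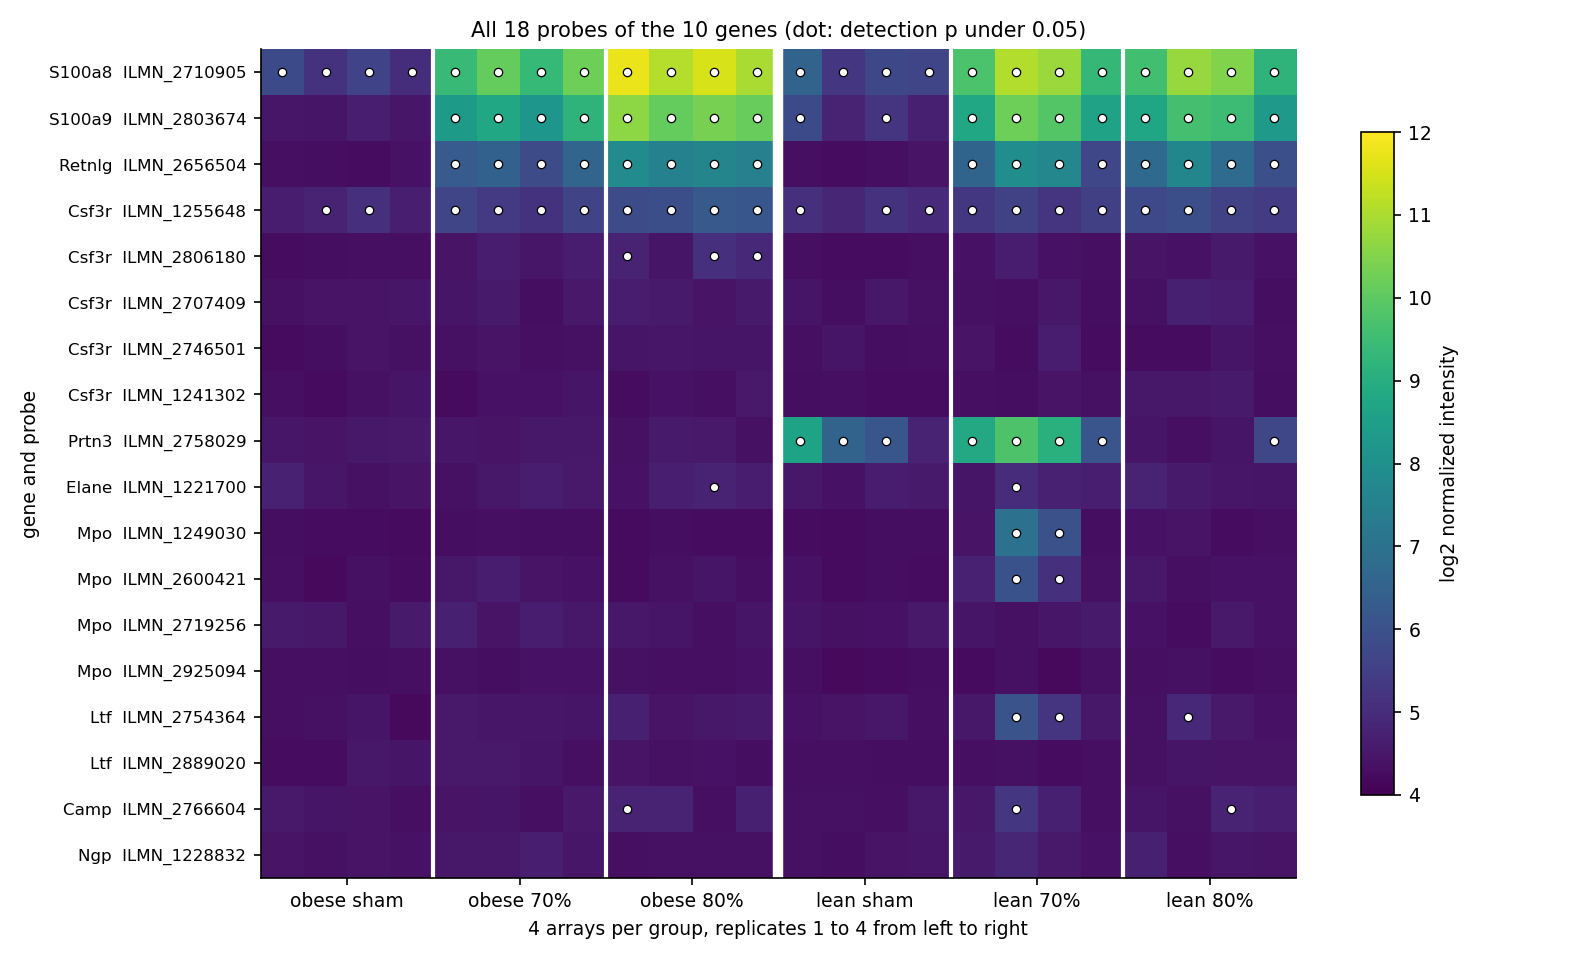
Log2 normalized intensity (colour) of the 18 probes (rows, by gene) on the 24 arrays (columns, 4 per group), with a dot where the detection p was under 0.05. Outside the 5 probes that passed the filter, 8 of the 15 dots lie in lean 70% replicates 2 and 3.

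Markers of other cells moved beside these readings. The summed linear level of 9 measured Kupffer cell and macrophage markers, of 11 listed, was 4576, 6764, 6385 and 2336 in the 4 lean 70% arrays, highest in replicates 2 and 3. It spanned 2386 to 3117 in obese 70%, 2258 to 3995 in obese 80%, 2939 to 4145 in obese sham, 2162 to 2905 in lean 80% and 3003 to 4717 in lean sham arrays. In lean mice all 9 were called lower after 80% than after 70% (9.32% of all probes), the comparison in which Prtn3 was lowest, and after 70% hepatectomy 7 of 9 were called lower in obese than in lean livers (14.8% of all probes). In lean 70% arrays the sums of erythroid (6091, 8972, 9086 and 5987), platelet (331.6, 426.4, 456.1 and 305.5) and endothelial markers (4573, 5416, 4768 and 3334) were also highest in replicates 2 and 3. So was the monocyte sum, while the B cell and the T and NK cell sums were not. The hepatocyte sum was lowest there (156700, 144700, 148900 and 161800). The part of these cells in the Prtn3 and Mpo readings was not tested.

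Within groups, the calprotectin genes and Retnlg moved together from array to array. After subtraction of group means, S100a8 and S100a9 had a Pearson correlation of 0.95 over the 24 arrays, S100a8 and Retnlg 0.81, and S100a9 and Retnlg 0.83. The correlation of S100a8 with Csf3r was 0.28. With Prtn3 it was 0.41, but Spearman's rho was 0.11. These are descriptions over arrays that share slides and groups. The range of S100a8 within a group was 0.75 log2 units in obese sham, 0.88 in obese 70% and 0.77 in obese 80% livers, and 1.27 in lean sham, 1.75 in lean 70% and 1.55 in lean 80% livers, so that each lean group spread more than each obese group.

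**Figure D4:**
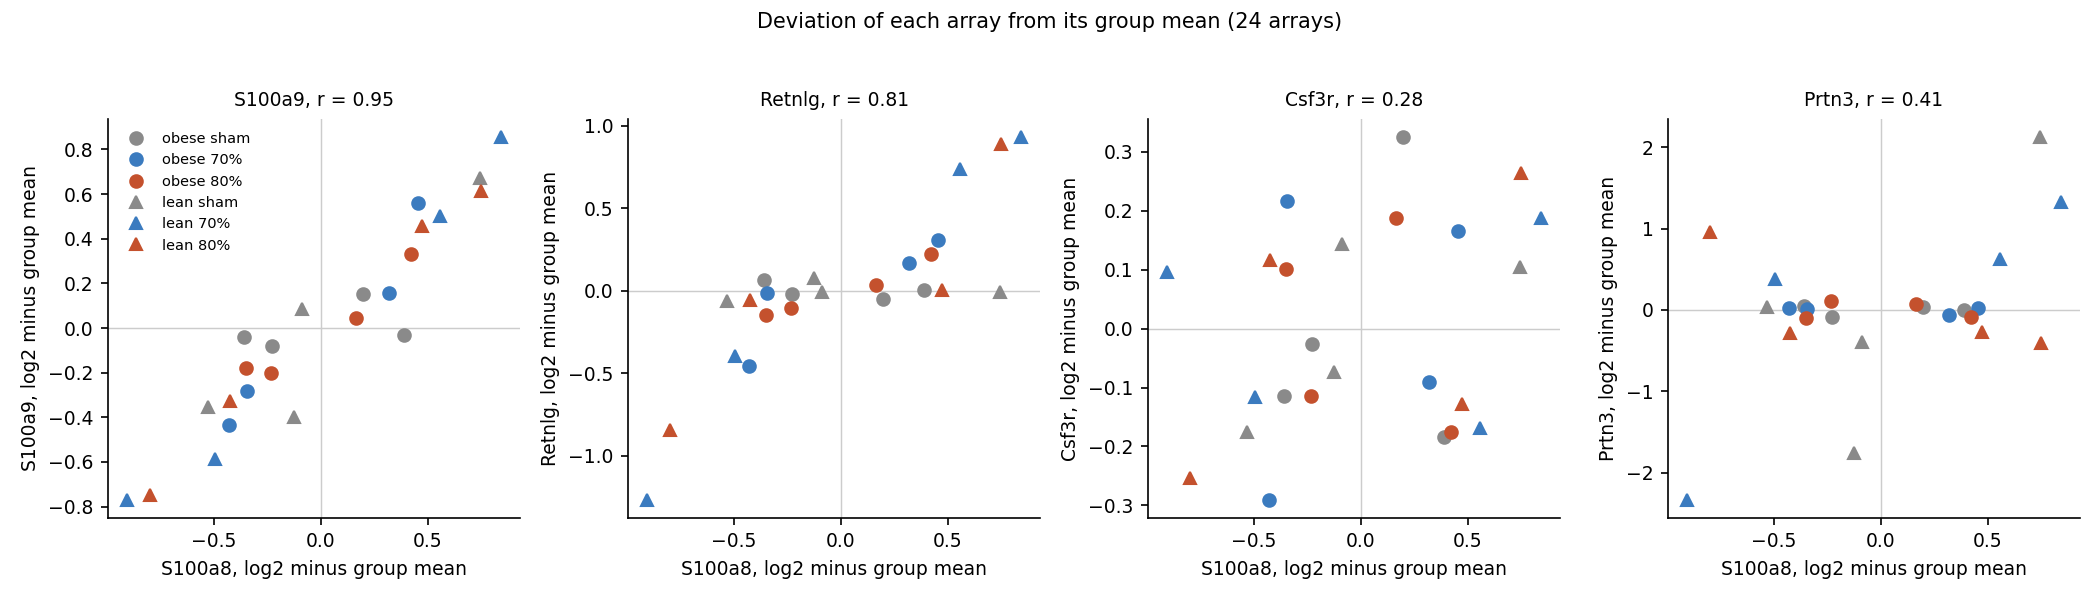
Deviation of each array from its group mean (log2 units) for S100a8 (horizontal axis) and for S100a9, Retnlg, Csf3r and Prtn3 (vertical axes), with circles for obese and triangles for lean arrays, coloured by surgery. S100a9 follows S100a8 along a line (r = 0.95), Retnlg does so among hepatectomy arrays (r = 0.81 over all), and Csf3r and Prtn3 scatter (r = 0.28 and 0.41).

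Over all 24 arrays the probe most like S100a8 was S100a9 (r = 0.997), followed by both probes of the protease inhibitor Timp1 (0.98 each), Fxyd5 (0.97) and Retnlg (0.97), then the keratins Krt18 and Krt8, Emp1, Map3k6 and Myh9 (all 0.97). After subtraction of group means the list held S100a9 (0.95), Alox5ap (0.87), which serves leukotriene synthesis in white cells, Retnlg (0.81), Ifitm6, the oxidase subunit gene Ncf4, the decoy receptor gene Il1r2, Fxyd5, the proteoglycan gene Srgn and Cd53. Ngp, below detection throughout, correlated best with Dnaja3 and Lcat (0.76 each), then with both probes of Ctsc, Nr1d1, Hectd2, Ccdc169, Col6a1, Rora and Arsg (0.72 to 0.68). For Prtn3, in a search added after its values were seen, the nearest were Ly6e and Spink1 (0.93 each), then Kng1, Nenf, Dnaic1, Mal, Ndnf, Ppib and Timd4 (0.91 to 0.87). After subtraction of group means they were Snrnp25, Bok, A2ml1, Ctla2b, Cyb561, Spink1, Gtf2ird1, Gmds and Spata24 (0.85 to 0.82).

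The counts of the gene lists that follow are to be read against all probes, of which 20.5%, 22.6%, 20.2% and 24% were called higher and 23.6%, 27%, 23.6% and 28% lower after obese 70%, obese 80%, lean 70% and lean 80% hepatectomy. Other granule and secreted proteins of neutrophils were read from a list of 20 genes, 10 of them measured. After obese 70% hepatectomy 4 rose and 0 fell, after obese 80% 7 and 0, after lean 70% 6 and 0, and after lean 80% 5 and 0. The median log2 difference was 0.25, 0.50, 0.53 and 0.46 in that order (0.09, 0.38, 0.53 and 0.27 with undetected groups at the floor), beside -0.03, -0.03, -0.02 and -0.04 over all probes. Lcn2, an iron-trapping protein that hepatocytes also make, rose by 6.07 (SE 0.48, adjusted p = 4.06e-10), 5.79 (SE 0.48, adjusted p = 5.53e-10), 4.93 (SE 0.48, adjusted p = 9.44e-09) and 3.95 (SE 0.48, adjusted p = 2.3e-07). Slpi, an inhibitor of elastase, rose by 1.58, 3.50, 4.00 and 4.33, and was lower in obese than in lean livers after 70% hepatectomy by log2 -1.98 (adjusted p = 0.00027). Chil3, a chitinase-like protein of myeloid cells, was detected on all hepatectomy arrays and on 0 sham arrays.

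Among neutrophil surface and receptor genes, 15 of 23 were measured. After obese 70% hepatectomy 8 rose and 1 fell, after obese 80% 10 and 1, after lean 70% 6 and 0, and after lean 80% 8 and 2. Il1r2 and Clec4d, an activating lectin receptor, were detected on all hepatectomy arrays and on 0 sham arrays, as was Retnlg. Hdc, which makes histamine, rose by 2.42, 2.69, 2.12 and 2.33 in the same order. Cxcr2, the receptor for the neutrophil attractants Cxcl1 and Cxcl2, was detected on 2 obese 70%, 4 obese 80%, 0 lean 70% and 2 lean 80% arrays, and on 0 sham arrays.

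In obese against lean livers after 80% hepatectomy 6 of the 15 were called higher and 0 lower, beside 10.4% of all probes called higher. Among the 6 were Il1b (0.98, adjusted p = 0.0417), Clec4d (0.89, adjusted p = 0.00278) and Il1r2 (0.89, adjusted p = 0.00253). After 70% hepatectomy 1 of the 15 was called higher and 3 lower in obese than in lean livers (14.8% of all probes lower). After sham surgery 0 were called higher and 1 lower (5.09% of all probes lower). The interaction with 80% hepatectomy was called higher for 4 of 15 (4.78% of all probes), led by the formyl peptide receptor gene Fpr2 (1.59, adjusted p = 0.00376). For obese 80% against obese 70% livers 4 rose (3.82% of all probes) and 0 fell, with Il1r2 at 1.43 (adjusted p = 0.000225). In lean livers 1 was called higher and 3 lower after 80% than after 70%, beside 8.2% and 9.32% of all probes.

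Of the oxidase genes, which make superoxide in phagocytes, 3 of 6 were measured: 1 rose after obese 70% and 1 after obese 80%, 2 after lean 70% and 0 after lean 80%, beside 20.2% to 24% of all probes called higher. Of 7 granulocyte transcription factors, 2 rose and 2 fell after obese 70%, 3 and 2 after obese 80%, 2 and 2 after lean 70% and 3 and 2 after lean 80%, beside 20.2% to 24% of all probes higher and 23.6% to 28% lower. Cebpa and Cebpe, which drive granulocyte maturation, fell in all 4 comparisons, with log2 differences of -1.40, -1.40, -1.50 and -1.08 for Cebpa in that order and -1.50, -1.23, -0.60 and -1.26 for Cebpe. Cebpb, linked to emergency granulopoiesis, rose by 1.55, 1.64, 1.09 and 1.41. Hepatocytes express Cebpa and Cebpb too.

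Chemoattractants and adhesion molecules that bring neutrophils in were measured for 12 of 17 genes. After obese 70% hepatectomy 8 rose and 1 fell, after obese 80% 10 and 1, after lean 70% 2 and 1, and after lean 80% 7 and 1. Cxcl1 rose by 5.07 (adjusted p = 5.26e-13), 4.91 (adjusted p = 4.54e-13), 1.99 (adjusted p = 1.58e-06) and 2.62 (adjusted p = 1.62e-08). Its interaction with diet was 3.08 for 70% (adjusted p = 1.44e-05) and 2.29 for 80% hepatectomy (adjusted p = 0.000488). The one that fell throughout was Cxcl12, which retains neutrophils in marrow, with log2 differences of -1.52, -1.72, -1.14 and -1.34. After 70% hepatectomy Cxcl1 stood 2.08 higher in obese than in lean livers (adjusted p = 4.85e-06), where S100a8 had a difference of -0.45 (adjusted p = 0.353).

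S100 relatives of calprotectin were measured for 9 of 15 genes, and after obese 70% 3 rose and 1 fell, after obese 80% 4 and 2, after lean 70% 3 and 2, and after lean 80% 3 and 3. Of all probes 20.2% to 24% rose and 23.6% to 28% fell. S100a11 rose by 1.28, 2.42, 2.02 and 1.55 in that order, S100a10 by 0.82, 1.96, 1.69 and 1.66, and S100a6 by 0.58, 1.58, 1.46 and 0.80. In obese livers 4 of 9 were called higher after 80% than after 70% (3.82% of all probes). After 80% hepatectomy 4 of 9 were called higher in obese than in lean livers (10.4% of all probes). Of 7 measured calprotectin receptors and partners 4 rose and 0 fell in each of the 4 hepatectomy comparisons. Cd14, a co-receptor of Toll-like receptor 4, rose by 3.62, 5.48, 5.62 and 5.84, and Ly96, another partner of that receptor, had an interaction of diet with 80% hepatectomy of 1.34 (adjusted p = 0.00816). The interaction of Cd14 was -2.004 with 70% hepatectomy (adjusted p = 4.7e-05), and -0.36 with 80% (adjusted p = 0.479).

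Markers of blood and vessel cells were counted in the same 4 comparisons, in the order obese 70%, obese 80%, lean 70% and lean 80%. Of 7 monocyte markers 3 were measured, while Ccr2 and Ly6c2 had no probe that passed. F13a1 was detected on 4, 4, 1 and 4 arrays and on 0 sham arrays, Cx3cr1 fell by 0.43 after obese 70% (adjusted p = 0.0238) and by 0.58 after obese 80% (adjusted p = 0.00226), and Itga4 was called in none. Of 5 measured platelet markers 1, 2, 2 and 2 rose and 1, 0, 0 and 0 fell, Itga2b being the one that fell (-0.31, adjusted p = 0.0258). Pf4 rose in all 4, by 1.25, 2.23, 2.40 and 1.74, and after 80% it was higher in obese than in lean livers by 0.86 (adjusted p = 0.00864).

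The summed linear level of the platelet markers spanned 219.1 to 286.7 in obese 70%, 329.7 to 463.8 in obese 80%, 305.5 to 456.1 in lean 70% and 248.4 to 283.4 in lean 80% arrays, against 148.1 to 194 in obese sham and 146.2 to 170.3 in lean sham arrays. It was higher on every obese 80% array than on every obese 70% and every lean 80% array. Taken one at a time, these separations held for 6.74% and 10% of all probes. The sums of the S100 relatives and of the neutrophil surface genes were separated in the same way. Of the 5 platelet genes, Pf4 and Ppbp rose after obese 80%, while Itgb3, Gp9 and Itga2b were not called. Of 5 measured endothelial markers 3, 3, 3 and 3 rose and 1, 2, 0 and 1 fell. Lyve1, a hyaluronan receptor, rose by 2.04, 2.66, 2.55 and 2.99, and Clec4g, a lectin of sinusoids, fell by 0.39, 0.86 and 0.47 after obese 70%, obese 80% and lean 80%. Of 4 measured erythroid markers 2 rose and 1 fell after lean 70%, with Slc4a1 at 1.36 (adjusted p = 0.00844), and 0 were called in the other comparisons. The 3 measured T and NK cell markers were called in none. Of the B cell markers only Cd79b was measured, detected on 3 sham arrays of each diet. It fell after obese 80% (-0.51, adjusted p = 0.00877), lean 70% (-0.50, adjusted p = 0.0108) and lean 80% (-0.50, adjusted p = 0.00977), and was not called after obese 70%. The part of these cells in the member genes' values was not tested.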

How the data were processed

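Total RNA of 24 liver samples was labelled as biotin cRNA and read on Illumina BeadChip arrays, per the labels. The deposited table holds the intensity of 45281 probes per array, on a linear scale and not normalized between arrays, with a detection score that rises with brightness although the file headers call it a p-value. The detection p was therefore taken as 1 minus the deposited score. The authors' log2 values, deposited separately, could be rebuilt from the intensities (quantile normalization, no background correction, each probe centred on its median; largest difference 0.00957), and served as an alternative. The scale and centring are thus known. For the scanner and its software, the sources used here give nothing.

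Background was corrected by normexp in limma 3.58.1 under R 4.3.3, its mean and SD being estimated from the detection p, and an offset of 16, then quantile normalized and put on the log2 scale. The filter kept probes detected (p under 0.05) on 4 or more arrays. Each probe was fitted on its own. A single limma model of the 6 group means and 18 residual degrees of freedom gave 11 two-sided contrasts, adjusted by Benjamini and Hochberg over all 19631 probes. An adjusted p under 0.05 is a call, and "rose" or "fell" is used for calls. Of the probes, 34885 had 1 gene, 18 several and 10378 none, from a platform annotation that can be old. For the lists, the probe with the highest mean stood for a gene. The test was checked on simulated data. Precision is limited by the number of arrays.

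Members, lists and naming rule were chosen with earlier results of these data known. All members are named, with up to 3 genes per list by the size of called changes, and the 10 probes most like S100a8 and Ngp (genes with several probes named once). Genes beyond this rule (Cxcr2, the marker genes and those set beside Prtn3) were chosen after their values were seen, as were the within-slide differences. Alternatives were background, offset, normalization, filter, 1 probe per gene, slide as a fixed or random term, the replicate number as a block, the authors' log2 values and leaving out each array.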

Additional observations from a re-analysis of the deposited data

Results flagged for a closer look

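Prtn3 in lean 80% replicate 4 read 5.69 on the log2 scale, against 4.33 to 4.46 on the other 3 arrays of the group, all below detection. Its gap to the nearest array was 0.907 of the group's range. This was the single such array among 34 groups of arrays tested, and chance marks about 1 group in 20.

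The change after 80% hepatectomy differed between obese and lean livers for S100a8 (interaction 1.74, adjusted p = 0.03 by limma) and for S100a9 (interaction 1.86, adjusted p = 0.0101). With slide as a fixed term neither was called (adjusted p = 0.13 and 0.0515), and the S100a8 call was lost with no detection filter (0.0943) and without any one of 7 arrays. For both genes all 4 obese and all 4 lean arrays after 80% hepatectomy lay above their shams, and all 4 obese arrays lay above the 4 lean ones.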

How the results depend on the processing

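No called difference of a member turned its direction. Uncalled ones crossed 0 when 1 array was left out: S100a8 for 80% against 70% in lean livers (-0.52 to 0.06), the 70% interactions of S100a8 (-0.35 to 0.23) and S100a9 (-0.39 to 0.15), and others near 0. The calls of S100a8, S100a9 and Retnlg in the 4 hepatectomy comparisons stood under every alternative run for them. Of these comparisons, slide as a fixed term could be fitted only for lean 70%, so the other calls were not checked against slide in that way. With 1 probe per gene, which tests fewer features, the probes called numbered 5039 after obese 70% (8659 with all probes), 5684 after obese 80% (9726), 5126 after lean 70% (8593) and 5916 after lean 80% (10195), 1313 (2066), 3293 (6067) and 2469 (3865) for obese against lean at sham, 70% and 80%, 846 (1314) and 1789 (3439) for 80% against 70% in obese and lean livers, and 1952 (3514) for the diet by 70% interaction. With slides as random blocks they numbered 3838 for obese against lean at 70%, 378 and 1808 for 80% against 70% in obese and lean livers, and 1510 for the 70% interaction. With slide as a fixed term they numbered 3788 after lean 70%, 972 and 2025 for obese against lean at sham and 80%, 808 for 80% against 70% in obese livers, and 574 for the 80% interaction (1779 without it). The cause was not tested.

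Member probes called with slide as a fixed term were 3 after lean 70% (5 without it), 0 (1) and 4 (2) for obese against lean at sham and 80%, 2 (4), Retnlg and Csf3r, for 80% against 70% in obese livers and 1 (2), Csf3r, for the 80% interaction. With no detection filter they were 0, 2 and 1 for obese against lean at sham and 70% and for the 80% interaction, and the sham count was also 0 without background correction, with an offset of 50 and with the authors' log2 values. Leaving out 1 array at a time, the member probes called ranged from 3 to 5 after lean 70%, 4 to 5 after lean 80%, 0 to 1, 1 to 3 and 2 to 4 for obese against lean at sham, 70% and 80%, 2 to 4 for 80% against 70% in obese livers, and 0 to 2 and 1 to 3 for the 70% and 80% interactions. Probes called ranged from 1302 to 2239 for obese against lean at sham (lowest without obese sham replicate 3), and from 494 (without obese 70% replicate 3) to 1656 (without obese 70% replicate 4) for 80% against 70% in obese livers.

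Under upper-quartile scaling the share of calls that were higher was 34.94% for obese against lean at 70% (52.13% with quantile normalization), 33.54% (52.91%) at 80% and 42.44% (52.73%) for the 80% interaction, and the median of all probes for obese against lean at 80% was -0.13. Replicate numbers showed no pairing: of 60 same-numbered pairs 8 correlated above 0.1 (range -0.19 to 0.16), and 4 of 24 arrays were most like one of their own number. With the replicate number as a block, 5 member probes were called after lean 70% and 2 in the 80% interaction, as without it.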
